A study of Mus musculus with 12 samples.

Results

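The BCL2 family genes described here are 10 mouse genes whose products decide between survival and apoptosis at the mitochondrion. They were taken by symbol from a table of 45706 genes: the survival genes Bcl2, Bcl2l1 (which encodes BCL-XL) and Mcl1, the pore-forming effectors Bax and Bak1, and the BH3-only genes Bcl2l11 (BIM), Pmaip1 (NOXA), Bbc3 (PUMA), Bid and Bmf. All 10 were found and all 10 passed the filter on low counts. They were measured by stranded sequencing of polyadenylated RNA from conventional (con) and regulatory (trg) T cells, of wild-type (WT) mice and of mice with the genotype labelled Coro1-/-, called KO here, which lack the actin-binding protein coronin 1. Each of the 4 groups had 3 libraries. The labels give no strain, age, treatment, tissue of origin or sorting gate, nor do they say whether each library came from its own animal. Every group held libraries with mostly Xist reads and libraries with mostly Y-linked reads, so its libraries did not all come from 1 animal, and p-values cover only the spread among them.

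Proteins of the BCL2 family set the threshold of the mitochondrial death pathway. BAX and BAK1 form pores in the outer mitochondrial membrane, through which cytochrome c escapes and activates caspases. BCL2, BCL-XL and MCL1 hold them in check, and BH3-only proteins, which sense stress or loss of growth signals, bind the survival proteins or activate the effectors. In T cells BCL2 is sustained by interleukin 7, BIM removes self-reactive thymocytes and contracts responses, and MCL1 is needed by naive and regulatory T cells alike. NOXA binds MCL1 with preference, PUMA and NOXA are targets of p53, BID is cleaved by caspase 8 below death receptors, and BMF responds to cytoskeletal and growth signals.

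Libraries held 19686870 to 33404302 counts in genes, the fewest in WT regulatory replicate 1. Levels are given as CPM, each gene's share of a library's gene counts, after TMM scaling, which sets libraries on a common scale. Coro1a stood at 2123 to 2711 CPM in WT and at 20.9 to 47.2 CPM in KO libraries, as their labels state. Markers of other cells differed between the groups, and no marker of any list was at 0 in all libraries of a group. In conventional libraries the summed level of 6 T cell markers was 3062 to 3351 CPM in WT, against 1948 to 2315 CPM in KO, while 10 macrophage markers summed to 243 to 310.2 CPM in WT, against 1495 to 3277 CPM in KO. Regulatory libraries carried the regulatory markers (Foxp3 at 443 to 641 CPM, against 21.0 to 66.2 CPM in conventional libraries). They also carried 8 B cell markers summing to 3421 to 4805 CPM, above their T cell markers at 1083 to 2322 CPM, against 4.96 to 56.1 CPM in conventional libraries. In 4 regulatory libraries reads of both Xist and Y-linked genes reached 1 CPM, and in 2 of these (WT replicate 3 and KO replicate 1) both reached 10 CPM. In such bulk samples fewer cells of a type and less RNA per cell cannot be told apart.

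The promoters of 5 members are shown: Bcl2, Bcl2l11, Bcl2l1, Bid and Bmf. The levels of Bcl2l1, Bid and Bmf moved together across libraries, as did those of other members such as Bak1, whose window is not shown. Pmaip1, the member with the largest knockout effect in conventional cells, was not searched, so no sequence of it is shown. Each sequence is the 250 bases before a RefSeq transcript start (build GRCm38.p6), written along the gene's own strand. Capitals mark matches, on either strand, to letters searched for: TGACG (the core of the cyclic AMP response element, which the full TGACGTCA contains), GTAAACA (a FOXO site), an NF-kappaB site and a STAT site.
Bcl2, chr1:106714291-106714540, minus strand: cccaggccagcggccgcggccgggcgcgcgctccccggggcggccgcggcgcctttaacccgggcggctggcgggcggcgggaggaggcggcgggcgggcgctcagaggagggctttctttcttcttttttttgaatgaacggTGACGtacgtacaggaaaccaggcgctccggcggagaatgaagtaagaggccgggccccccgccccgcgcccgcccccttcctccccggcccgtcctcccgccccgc
Bcl2l11, chr2:128125788-128126037, plus strand: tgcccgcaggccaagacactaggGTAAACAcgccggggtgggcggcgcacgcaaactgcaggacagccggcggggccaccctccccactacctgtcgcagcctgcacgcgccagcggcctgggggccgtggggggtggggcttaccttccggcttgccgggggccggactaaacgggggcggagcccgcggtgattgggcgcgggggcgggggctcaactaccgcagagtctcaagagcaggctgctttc
Bcl2l1, chr2:152830718-152830967, minus strand: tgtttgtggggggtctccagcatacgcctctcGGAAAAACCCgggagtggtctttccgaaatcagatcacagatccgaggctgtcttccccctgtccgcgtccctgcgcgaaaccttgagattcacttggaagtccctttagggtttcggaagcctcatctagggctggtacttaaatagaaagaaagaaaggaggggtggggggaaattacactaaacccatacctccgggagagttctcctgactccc
Bid, chr6:120916825-120917074, minus strand: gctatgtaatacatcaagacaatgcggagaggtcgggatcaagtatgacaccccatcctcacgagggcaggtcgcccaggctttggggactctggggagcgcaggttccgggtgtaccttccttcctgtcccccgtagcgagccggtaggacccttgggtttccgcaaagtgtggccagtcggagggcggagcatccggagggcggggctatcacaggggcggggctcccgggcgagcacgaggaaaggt
Bmf, chr2:118549687-118549936, minus strand: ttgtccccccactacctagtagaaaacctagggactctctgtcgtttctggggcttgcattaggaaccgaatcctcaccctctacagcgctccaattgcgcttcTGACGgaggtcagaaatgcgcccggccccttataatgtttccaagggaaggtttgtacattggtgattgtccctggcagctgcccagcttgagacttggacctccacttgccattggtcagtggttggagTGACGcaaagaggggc

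In the Bcl2 window TGACG began 107 bases before the start. In the Bmf window, which is 1 of 3 for that gene, it began 146 and 16 bases before it. Where a gene had several windows, the one with the most matches is shown. Shares of all windows, which were not picked in this way, are therefore not a like measure for these genes. Of all 32851 windows searched in the same way, 17.8% held TGACG and 1.55% the full TGACGTCA. The full TGACGTCA was found in none of the 9 members searched. The Bcl2l11 window, which is 1 of 2 for that gene, held GTAAACA at 227 bases before its start, as did 3.17% of windows. The Bcl2l1 window, which is 1 of 3 for that gene, held an NF-kappaB match on the opposite strand at 218 bases, as did 1.41% of windows. No letters searched for were found in the Bid window. The STAT site, held by 7.02% of windows, was found in none of the members searched. A match is a run of letters and shows no binding. RefSeq windows of 9 members, 16 in all, were searched, and Pmaip1 was left out of the search. Beyond the 5 shown, windows of Mcl1 and Bbc3 held matches and those of Bax and Bak1 held none. For Mcl1 and Bbc3 the sequence just after the starts used was not found in an annotated transcript of the gene. It was found for the other members searched.

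Among the survival genes, Mcl1 was the most abundant member in every group when counts were set per kb of exon, so that genes could be compared. It reached 200.2 ± 7.37 (SD, n = 3) CPM per kb in WT conventional, 191 ± 7.08 in KO conventional, 218 ± 6.64 in WT regulatory and 217 ± 9.58 in KO regulatory libraries. The effector Bax came next throughout, at 38.3, 43.4, 46.8 and 52.4 CPM per kb. Bcl2 ranked after Bax in WT conventional cells, at 25.5 ± 1.71 CPM per kb, and did not differ from Bak1 beyond the spread of libraries in KO conventional cells (24.9 against 25.6) or WT regulatory cells (26.2 against 29.4). In KO regulatory cells Bcl2, at 20.2 ± 1.00 CPM per kb, lay below Bak1 at 33.4 ± 2.21 and overlapped Bid at 19.0 ± 0.844. Lower in the order of conventional cells stood Bbc3, Bcl2l11, Bid and Bcl2l1, at 14.5, 12.5, 5.37 and 4.49 CPM per kb in WT, with Bbc3 overlapping both Bak1 and Bcl2l11. Pmaip1 was the lowest member in WT conventional cells (1.14 ± 0.0700 CPM per kb) and in both regulatory groups (5.03 ± 0.209 and 6.52 ± 0.644), although in WT regulatory cells it overlapped Bbc3 at 6.21 ± 1.38. In KO conventional cells the lowest was Bmf at 4.26 ± 0.907, which overlapped Pmaip1 at 5.84 ± 1.55.

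**Figure D1:**
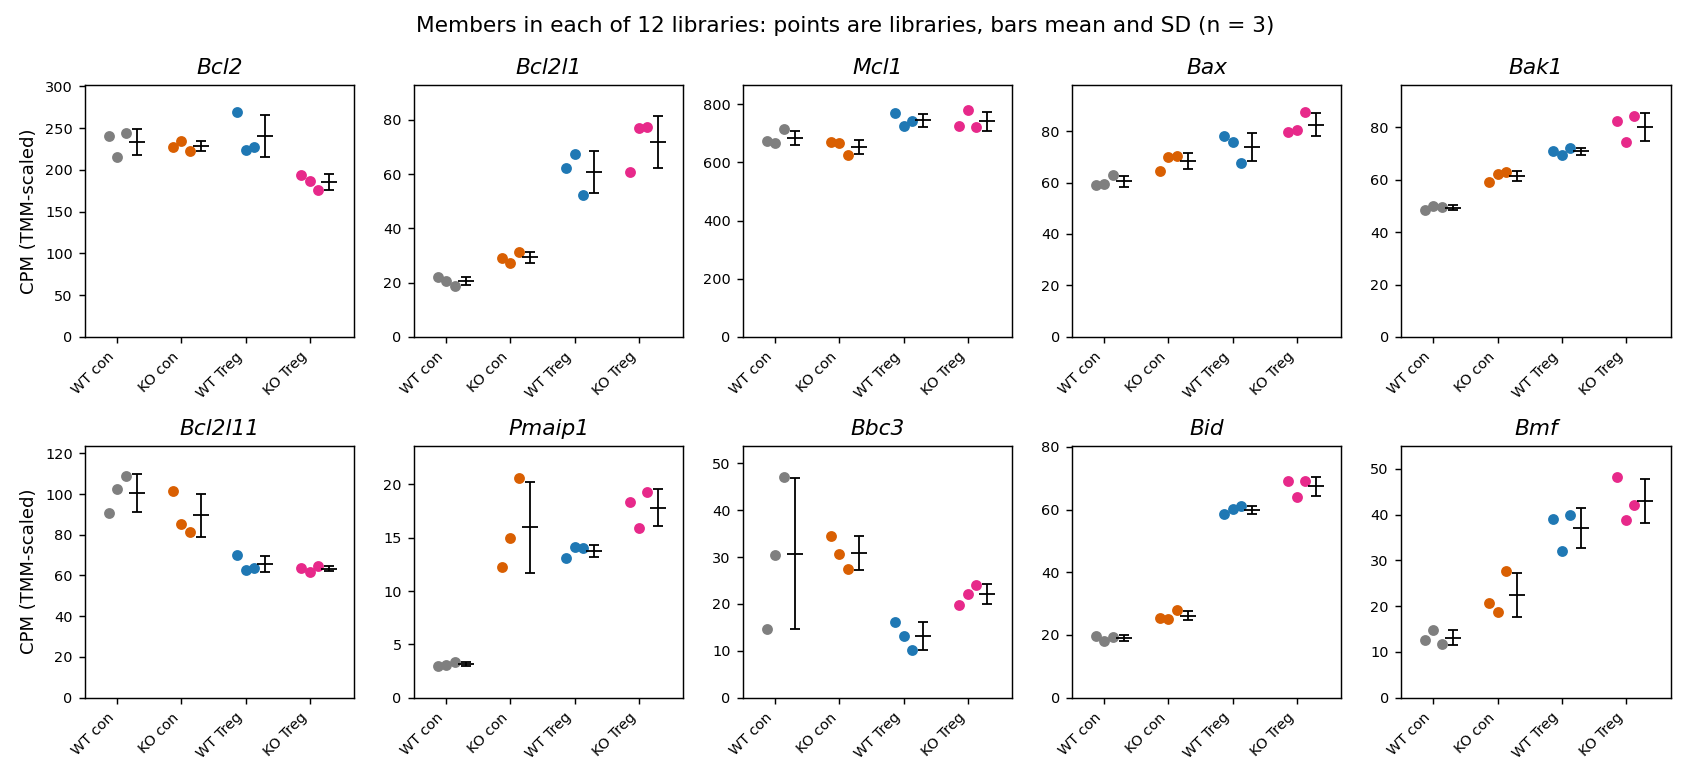
TMM-scaled CPM of the 10 members in each of the 12 libraries, with mean and SD of 3 libraries per group; each panel has its own axis from 0. Pmaip1 is near 3 CPM in WT conventional libraries alone, Bid and Bcl2l1 separate the cell types, and Bcl2 is lowest in the 3 KO regulatory libraries.

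One question was what changed in conventional T cells that lack coronin 1. Pmaip1 was 5.11-fold higher in KO, and Bmf, Bid, Bcl2l1, Bak1 and Bax were higher by smaller factors, while Bcl2, Mcl1, Bcl2l11 and Bbc3 were not called. The test was edgeR's quasi-likelihood F test over all genes, with a Benjamini-Hochberg adjusted p below 0.05 as a call. Of the 10 members 6 were called, all higher, where 48.7% of the 15922 genes tested were called, 23.3% higher and 25.4% lower. The groups did not overlap for 6 members, against 63.6% of all genes, so both counts are near the background, while genes called at large were split between higher and lower.

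Of the survival genes, Bcl2 (ENSMUSG00000057329, GRCm38 chromosome 1, 106538178 to 106714274, minus strand) had 240.3, 215 and 244 CPM in WT, against 227, 234 and 223 CPM in KO conventional libraries. The ranges overlapped, and the log2 fold change was -0.03 (95% interval -0.20 to 0.14). Mcl1 (ENSMUSG00000038612, chromosome 3, 95658788 to 95663176, plus strand), whose short-lived protein guards many cell types, had 674, 666 and 713 CPM in WT, against 669, 666 and 626 CPM in KO. These also overlapped, at -0.07 (-0.20 to 0.07). Bcl2l1 (ENSMUSG00000007659, chromosome 2, 152780668 to 152831728, minus strand), induced in activated T cells, had 22.2, 20.7 and 18.9 CPM in WT, against 29.2, 27.3 and 31.4 CPM in KO. The KO libraries were all higher than the WT libraries, and it rose by 0.51 (SE 0.12, adjusted p = 0.00400).

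Both effectors rose. Bak1 (ENSMUSG00000057789, chromosome 17, 27019810 to 27029009, minus strand), the effector that sits in the mitochondrial membrane, had 48.3, 50.2 and 49.5 CPM in WT, against 59.2, 62.3 and 63.0 CPM in KO. All 3 KO libraries lay above all 3 WT libraries, and the change on the log2 scale was 0.32 (SE 0.05, adjusted p = 6.69e-04). Bax (ENSMUSG00000003873, chromosome 7, 45461697 to 45466898, minus strand), which moves to the mitochondrion from the cytosol, had 59.0, 59.3 and 63.0 CPM in WT, against 64.7, 70.0 and 70.4 CPM in KO. The groups did not overlap, at 0.18 (SE 0.06, adjusted p = 0.0388). This call was lost with no filter on low counts (adjusted p = 0.106) and without WT replicate 1 (0.115) or 2 (0.119) or KO replicate 2 (0.110) or 3 (0.114).

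Among the BH3-only genes, Pmaip1 (ENSMUSG00000024521, chromosome 18, 66458533 to 66465565, plus strand) had 2.96, 3.06 and 3.33 CPM in WT, against 12.3, 15.01 and 20.6 CPM in KO conventional libraries, from 88 to 104 and 443 to 678 reads. Every KO library held several times the level of any WT library, and it rose by 2.35 (SE 0.17, adjusted p = 3.94e-06). Bmf (ENSMUSG00000040093, chromosome 2, 118528757 to 118549687, minus strand) had 12.7, 14.9 and 11.8 CPM in WT, against 20.7, 18.7 and 27.8 CPM in KO, without overlap, and rose by 0.77 (SE 0.15, adjusted p = 0.00173). For Bid (ENSMUSG00000004446, chromosome 6, 120891930 to 120916853, minus strand) the levels were 19.8, 18.1 and 19.3 CPM in WT, against 25.5, 25.0 and 27.9 CPM in KO. These groups were also apart, and Bid rose by 0.46 (SE 0.06, adjusted p = 1.43e-04). On the opposite strand Bid overlaps Bcl2l13, Bak1 overlaps Ggnbp1 and Bcl2 overlaps D630008O14Rik, and the counts are of the strand that the library kit marks. On the same strand, which this does not separate, Bcl2 overlaps Gm37053 and Mir3473f, Bax overlaps Gm45808 and Bid overlaps Gm44260.

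Bcl2l11 (ENSMUSG00000027381, chromosome 2, 128126038 to 128162547, plus strand) had 90.6, 103 and 109 CPM in WT, against 102, 85.4 and 81.5 CPM in KO conventional libraries. KO replicate 1 lay within the WT range, and the value of -0.17 (log2, SE 0.09, adjusted p = 0.130) was not called. Without WT replicate 1 it was -0.24 (adjusted p = 0.0474), and without KO replicate 1 it was -0.27 (adjusted p = 0.0196). Bbc3 (ENSMUSG00000002083, chromosome 7, 16308393 to 16318205, plus strand) had the widest spread of the members, with 14.7, 30.5 and 47.1 CPM in WT, against 34.5, 30.7 and 27.4 CPM in KO. The KO values lay inside the WT range and the estimate was 0.00 (95% interval -0.71 to 0.72), so a change inside that interval was not resolved.

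In the same KO conventional libraries 10 of 12 neutrophil, 9 of 9 NK cell, 10 of 10 macrophage, 8 of 8 B cell, 7 of 7 dendritic cell and 4 of 5 regulatory T cell markers were higher, and 6 of 6 T cell markers were lower. The summed neutrophil markers were at 8.73 to 15.8 CPM in WT, against 357 to 716 CPM in KO, NK cell markers at 86.4 to 105 and 352 to 646 CPM, and dendritic cell markers at 3.46 to 5.12 and 40.8 to 89.8 CPM. Regulatory T cell markers summed to 128 to 183 CPM in WT conventional libraries and to 250.1 to 414 CPM in KO, with Ikzf2 higher by 2.24, Foxp3 by 1.08, Ctla4 by 1.07 and Il2ra by 0.86 on the log2 scale. KO replicate 3, with the highest macrophage, NK cell and dendritic cell sums, also had the highest Pmaip1, Bmf, Bid and Bcl2l1. The neutrophil sum was highest in KO replicate 1 (716 CPM, against 369 CPM in replicate 3). KO replicate 1 also had higher macrophage, NK cell and dendritic cell sums than replicate 2. Its Bmf, Bid and Bcl2l1 were higher than in replicate 2, but its Pmaip1 was lower (12.3 against 15.01 CPM). The part of these cells in the results was not tested.

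**Figure D2:**
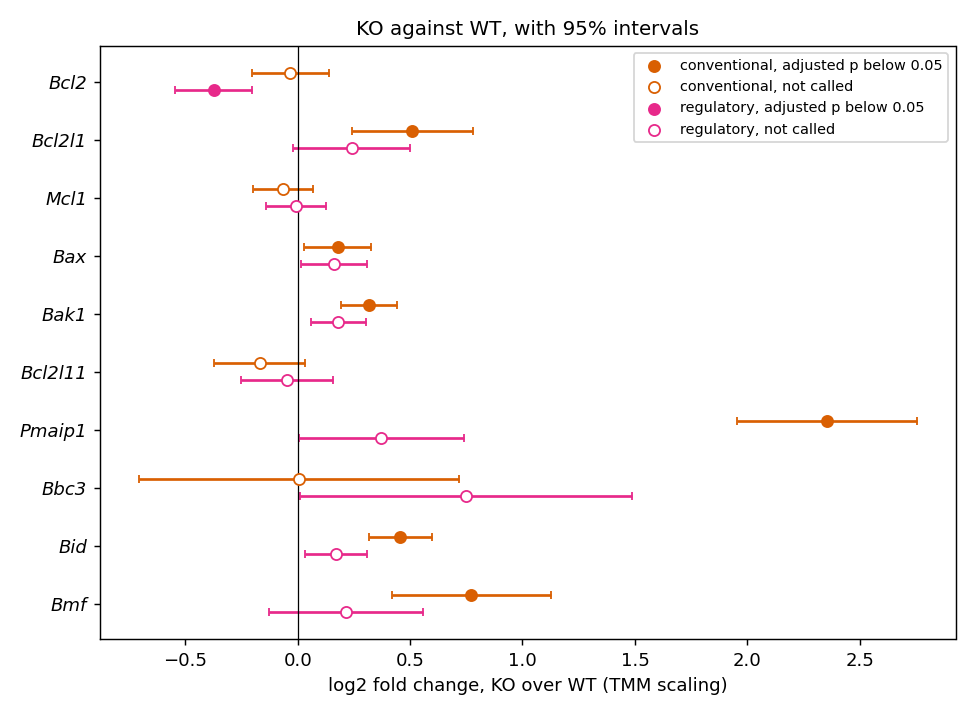
Log2 fold changes of KO over WT for the 10 members in conventional (orange) and regulatory (pink) T cells, with 95% intervals; filled points passed the adjusted p of 0.05. Pmaip1 at 2.35 in conventional cells is the largest, and Bcl2 at -0.37 is the filled point of the regulatory comparison.

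In regulatory T cells the same question gave a single call among the members: Bcl2 was lower in KO, at 0.772-fold of WT. The 9 other members were not called, although 5 of them (Bax, Bak1, Pmaip1, Bbc3 and Bid) had an unadjusted p below 0.05 and stood higher in all 3 KO than in all 3 WT libraries. Of all genes 7.83% were called, 4.01% higher and 3.82% lower. The groups did not overlap for 6 of the 10 members, against 26.2% of all genes.

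Bcl2 had 269, 223 and 228 CPM in WT, against 194, 186 and 176 CPM in KO regulatory libraries. The means were 240.2 ± 25.4 and 185 ± 9.18 CPM (SD, n = 3), and all KO values were below all WT values. Bcl2 fell by 0.37 (SE 0.07, adjusted p = 0.0149), a value that turned positive, at 0.18 (adjusted p = 0.428), with scaling to 6 T cell genes. The call was lost when the other 2 groups were left out of the fit (adjusted p = 0.0805), without KO replicate 3 (0.0569) and without the 4 libraries that held reads of both sexes (-0.35, adjusted p = 0.130, with 1 library per regulatory group whose spread is then taken from the other groups). Without the 2 libraries in which both reached 10 CPM it was -0.44 (adjusted p = 0.0188). Mcl1 had 769, 725 and 741 CPM in WT, against 725, 779.7 and 722 CPM in KO, which overlapped at -0.01 (95% interval -0.14 to 0.13). Bcl2l1 had 62.1, 67.5 and 52.4 CPM in WT, against 60.6, 77.0 and 77.5 CPM in KO, and its log2 fold change of 0.24 (adjusted p = 0.208) was not called, with KO replicate 1 among the WT values.

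For the effectors, Bak1 had 70.9, 69.4 and 72.2 CPM in WT, against 82.4, 74.3 and 84.3 CPM in KO regulatory libraries, a difference of 0.18 on the log2 scale (SE 0.05, adjusted p = 0.0630). It passed the threshold with upper-quartile scaling (adjusted p = 0.0491), with DESeq2 (0.0369) and without KO replicate 2 (0.24, 0.0356). Bax had 78.1, 75.7 and 67.7 CPM in WT, against 79.6, 80.5 and 87.6 CPM in KO, at 0.16 (adjusted p = 0.142). The nearest libraries of the groups, WT replicate 1 and KO replicate 1, differed by less than the spread within WT.

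Of the BH3-only genes, Bbc3 had 16.1, 13.2 and 10.3 CPM in WT, against 19.9, 22.2 and 24.1 CPM in KO regulatory libraries. All KO values were higher, but the fit gave 0.75 with a wide SE of 0.32 and an adjusted p of 0.167. Without WT conventional replicate 1, whose Bbc3 level of 14.7 CPM is the lowest of its group, the adjusted p was 0.0437, since all groups share 1 estimate of the spread. Pmaip1 had 13.1, 14.2 and 14.0 CPM in WT, against 18.3, 15.9 and 19.3 CPM in KO (0.37, adjusted p = 0.168). Bid had 58.6, 60.1 and 61.1 against 69.1, 64.0 and 69.2 CPM (0.17, adjusted p = 0.1004). The levels of Bmf overlapped, with 39.1, 32.1 and 40.0 CPM in WT, against 48.2, 38.8 and 42.0 CPM in KO, as did those of Bcl2l11, with 70.3, 62.8 and 63.7 against 63.7, 61.8 and 64.6 CPM. Beside these values, 4 of 12 neutrophil and 3 of 9 NK cell markers were higher in KO, 1 of 6 T cell markers was lower, and none of the B cell (8), macrophage (10) or dendritic cell (7) markers was called. Summed T cell markers were at 1683 to 2322 CPM in WT, against 1083 to 1662 CPM in KO, without overlap. The neutrophil sums were also apart, at 63.5 to 119 CPM in WT and 126 to 305 CPM in KO. NK cell sums were 52.2 to 83.9 and 94.2 to 102 CPM, and dendritic cell sums 45.8 to 74.2 and 76.2 to 127 CPM. The sums of macrophage, B cell and regulatory T cell markers overlapped. The part of these differences in the results of regulatory cells was not tested.

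Whether the knockout effect differed between the cell types was tested as the difference of the log2 fold changes, regulatory minus conventional. Pmaip1 differed most, at -1.98 (SE 0.23, adjusted p = 3.70e-04), since its KO effect was 2.35 in conventional and 0.37 in regulatory cells. The differences for Bcl2, -0.34 (SE 0.11, adjusted p = 0.0396), and Bid, -0.29 (SE 0.08, adjusted p = 0.0340), were also called. In all, 3 of 10 members were called and all 3 lower, where 21.3% of all genes were called, 8.86% higher and 12.4% lower. Bmf (-0.56, adjusted p = 0.0843), Bcl2l1 (-0.27, 0.265), Bak1 (-0.14, 0.227), Bax (-0.02, 0.924), Mcl1 (0.06, 0.652), Bcl2l11 (0.12, 0.534) and Bbc3 (0.75, 0.259) were not called, so differences between cell types were not shown for them. With T cell gene scaling the differences of Bcl2 and Bid were not called (0.682 and 0.797), nor with no filter (0.0602 and 0.116), nor without the 4 libraries with reads of both sexes (0.120 and 0.259). Bmf was called without KO conventional replicate 2 (-0.67, adjusted p = 0.0437) and Bbc3 without WT conventional replicate 1 (1.08, 0.0226).

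The adjusted p of Bcl2 was 0.0543, 0.101 and 0.0524 without WT conventional replicates 1, 2 and 3, 0.0691, 0.0786 and 0.0615 without KO conventional replicates 1, 2 and 3, 0.0559 without WT regulatory replicate 1 and 0.0901 without KO regulatory replicate 3. For Bid it was 0.0904 and 0.0633 without WT conventional replicates 2 and 3, 0.0808 without KO conventional replicate 3, 0.0644 and 0.0629 without WT regulatory replicates 2 and 3, 0.0666 and 0.0507 without KO regulatory replicates 2 and 3, and 0.0577 without the 2 libraries in which Xist and Y-linked reads both reached 10 CPM. By the same test 8 of 8 B cell, 8 of 9 NK cell, 7 of 10 macrophage, 6 of 12 neutrophil, 5 of 7 dendritic cell and 3 of 5 regulatory T cell markers were called, all lower, and their part in the member differences was not tested. The Pmaip1 call held in all 21 alternatives run for it.

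Between the cell types of WT mice, regulatory cells had higher Bid, Bcl2l1, Bmf, Pmaip1, Bak1 and Bax and lower Bcl2l11 and Bbc3 than conventional cells. Of the 10 members 8 were called, 6 higher and 2 lower, where 72.4% of all genes were called, 39.1% higher and 33.3% lower. The groups did not overlap for 8 members, against 75.3% of all genes. In KO mice 8 members were also called, 6 higher and 2 lower, against 67.8% of all genes, with 36.1% higher and 31.7% lower, and the groups were apart for 9 members, against 72.7% of all genes. Called either way, these shares lie near those of all genes, as does that of groups apart in WT. By direction, more members were higher and fewer were lower than those shares, a split that was not tested.

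Between the WT cell types Pmaip1 had the largest fold of the members and Bid the smallest adjusted p. Bid had 18.1 to 19.8 CPM in WT conventional and 58.6 to 61.1 CPM in WT regulatory libraries, a rise of 1.65 (SE 0.06, adjusted p = 3.72e-09). In KO it rose by 1.37 (SE 0.06, adjusted p = 1.72e-08), from 25.0 to 27.9 CPM in conventional to 64.0 to 69.2 CPM in regulatory libraries. Bcl2l1 rose by 1.56 (SE 0.12, adjusted p = 4.18e-07) in WT, from a mean of 20.6 ± 1.64 to 60.7 ± 7.66 CPM (SD, n = 3), and by 1.29 (adjusted p = 2.30e-06) in KO, from 29.3 ± 2.03 to 71.7 ± 9.60 CPM. Bmf rose by 1.498 (SE 0.15) in WT and 0.94 (SE 0.15) in KO, with adjusted p of 4.74e-06 and 1.71e-04. Pmaip1 rose by 2.14 (SE 0.17, adjusted p = 7.18e-07) in WT, from 3.12 ± 0.191 to 13.8 ± 0.570 CPM. In KO, where conventional cells already held 16.0 ± 4.24 CPM against 17.8 ± 1.76 CPM in regulatory cells, it was 0.16 (adjusted p = 0.386), a value that was 0.38 (0.0198) without KO conventional replicate 3 and -0.00 without KO conventional replicate 1.

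The effectors were higher in regulatory cells of both genotypes, Bak1 by 0.52 (SE 0.05, adjusted p = 5.04e-06) in WT and 0.38 (SE 0.05, adjusted p = 6.46e-05) in KO, and Bax by 0.29 (SE 0.06, adjusted p = 0.00176) and 0.27 (SE 0.06, adjusted p = 0.00273). Bcl2 did not differ between the WT cell types (233 ± 15.7 and 240.2 ± 25.4 CPM, log2 0.04, 95% interval -0.13 to 0.21) beyond the spread of libraries. In KO it fell by 0.30 (SE 0.07, adjusted p = 0.00380), from 228 ± 5.85 to 185 ± 9.18 CPM. With T cell gene scaling this value turned positive, at 0.30 (adjusted p = 0.197). Mcl1 was 0.12 (adjusted p = 0.0766) in WT, and 0.18 (SE 0.06, adjusted p = 0.0153) and called in KO, a call lost without KO conventional replicate 3 (0.0676), without KO regulatory replicate 2 (0.07, 0.322) and without the 4 libraries with reads of both sexes (0.107). In WT the Mcl1 difference was called with RLE scaling (0.14, adjusted p = 0.0371), upper-quartile scaling (0.15, 0.0325) and DESeq2 (0.14, 0.00520).

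Bcl2l11 was the member most steadily lower in regulatory cells. It fell by 0.62 (SE 0.09, adjusted p = 6.47e-05) in WT, from 101 ± 9.37 to 65.6 ± 4.08 CPM, and by 0.50 (SE 0.09, adjusted p = 3.77e-04) in KO, from 89.5 ± 10.7 to 63.4 ± 1.41 CPM (SD, n = 3), with no overlap in either genotype. Scaled to the 6 T cell genes in place of TMM, these turned positive, at 0.02 (adjusted p = 0.926) and 0.09 (0.718). The median of all genes was then 0.71 and 0.62. Bbc3 fell by 1.23 (SE 0.32, adjusted p = 0.00457) in WT, although 14.7 CPM in WT conventional replicate 1 lay among the regulatory values of 10.3 to 16.1 CPM. That call was lost with T cell gene scaling (-0.59, adjusted p = 0.0857) and without the 4 libraries with reads of both sexes (-1.25, 0.0823). In KO it was -0.49 (adjusted p = 0.184), and it was called when only the KO groups were fitted (0.00683) and without WT conventional replicate 1 (0.0360). Of the B cell markers 8 of 8 were higher in regulatory libraries of both genotypes, with medians of 10.42 in WT and 7.25 in KO on the log2 scale, as were 5 of 5 regulatory T cell markers. In WT 9 of 12 neutrophil, 8 of 10 macrophage, 7 of 7 dendritic cell and 4 of 9 NK cell markers were also higher, while 1 neutrophil, 2 NK cell and 5 of 6 T cell markers were lower. In KO 6 of 7 dendritic cell and 3 of 12 neutrophil markers were higher, while 9 of 9 NK cell, 4 of 10 macrophage, 2 neutrophil and 4 of 6 T cell markers were lower. The libraries of the cell types also stood apart in mitochondrial share of gene counts (1.44% to 2.33% in conventional, 5.16% to 8.15% in regulatory libraries), in multimapping reads (9.25% to 11.1% and 15.8% to 19.5%) and in reads outside genes (13.3% to 15.7% and 4.98% to 6.87%). The part of these differences in the member results was not tested.

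**Figure D3:**
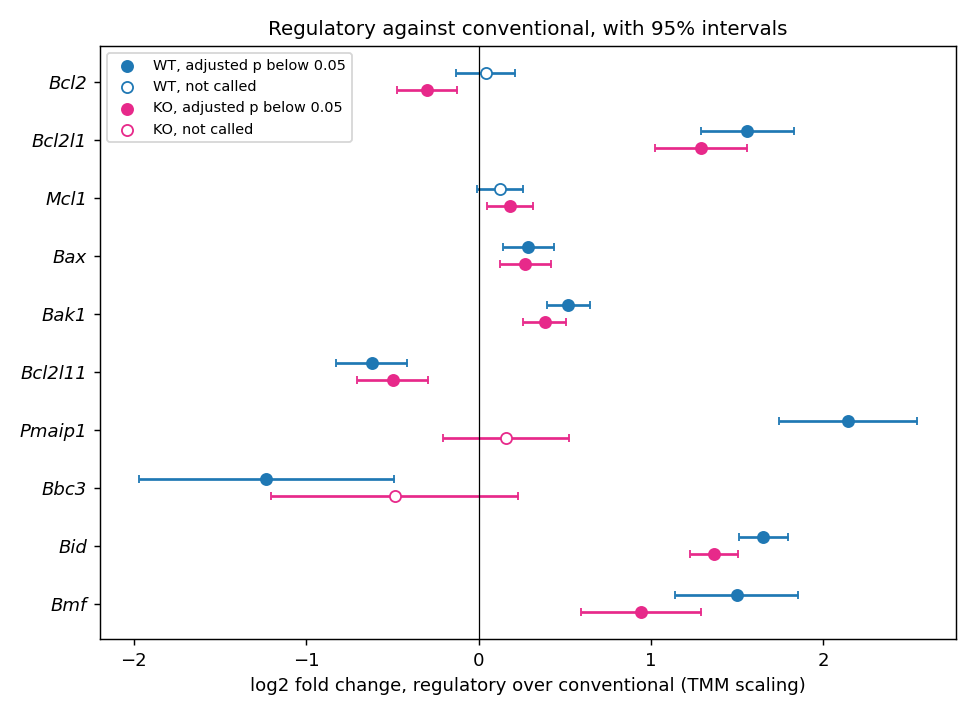
Log2 fold changes of regulatory over conventional T cells for the 10 members in WT (blue) and KO (pink), with 95% intervals; filled points passed the adjusted p of 0.05. Bid, Bcl2l1 and Bmf lie well to the right in both genotypes, Pmaip1 in WT alone, and Bcl2l11 lies to the left in both.

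Ratios of 2 members within a library do not depend on how libraries are scaled, and are given without a test. The log2 ratio of Bcl2 to Bcl2l11 counts, a survival gene against the BH3-only gene it restrains, was 1.41, 1.07 and 1.16 in the conventional libraries of WT and 1.16, 1.46 and 1.45 in those of KO. In regulatory libraries it was 1.94, 1.83 and 1.84 in WT and 1.61, 1.59 and 1.44 in KO. It was thus highest in all 3 WT regulatory libraries, and the KO regulatory libraries lay below them. The ratio of Mcl1 to Bcl2l11 separated the cell types, with 2.70 to 2.96 over all 6 conventional and 3.45 to 3.66 over all 6 regulatory libraries.

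The ratio of Bcl2 to Mcl1 was -1.90, -2.07 and -2.04 in KO regulatory libraries, below the other 9 libraries at -1.70 to -1.49. Bcl2 against the effector Bax stood at 1.95 ± 0.0829 in WT conventional, 1.74 ± 0.0757 in KO conventional, 1.70 ± 0.121 in WT regulatory and 1.17 ± 0.145 (SD, n = 3) in KO regulatory libraries. The 3 KO regulatory libraries, at 1.29, 1.21 and 1.01, were the lowest of all 12. Mcl1 against Pmaip1, the BH3-only gene whose product prefers MCL1, was 7.83, 7.76 and 7.74 in WT conventional libraries. It lay between 4.93 and 5.88 in the other 9 libraries.

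**Figure D4:**
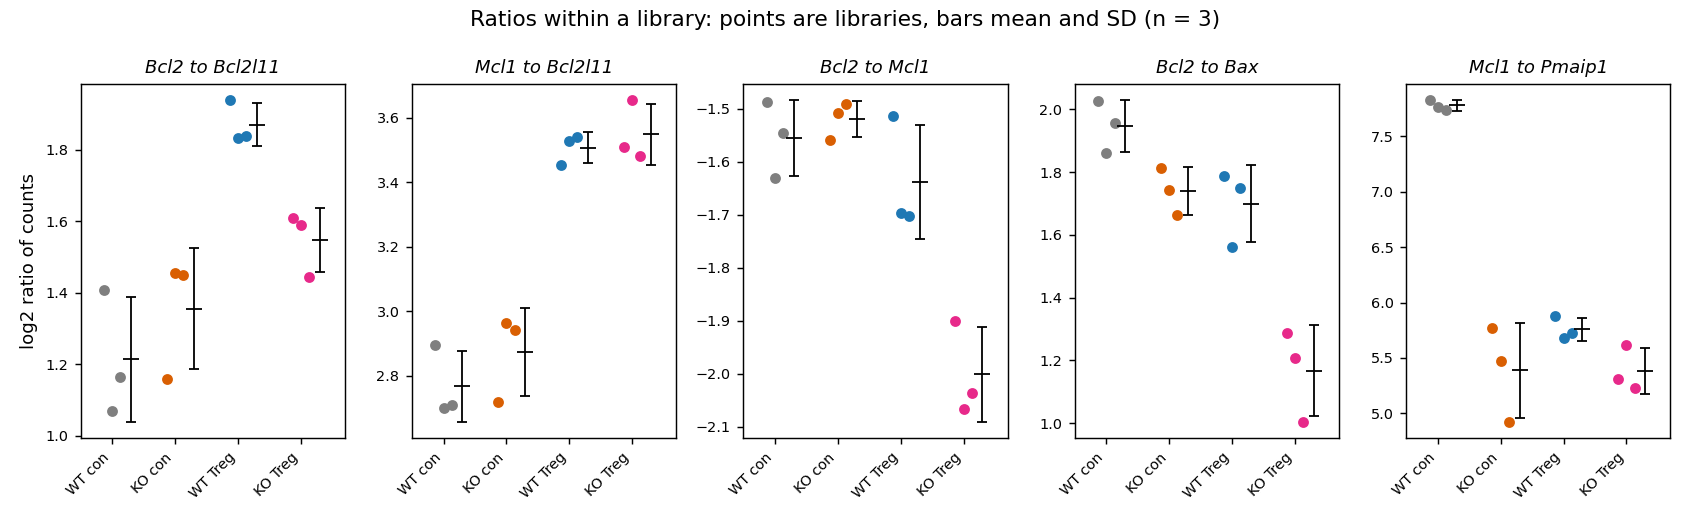
Log2 ratios of counts of 2 members within each of the 12 libraries, by group, with mean and SD of 3 libraries; axes do not start at 0. Bcl2 to Mcl1 and Bcl2 to Bax are lowest in the 3 KO regulatory libraries, and Mcl1 to Pmaip1 is highest in the 3 WT conventional libraries.

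Across the 12 libraries several members had like patterns, given as a description because the libraries fall into 4 groups and share cell composition and scaling. Pearson r of log2 CPM was 0.98 for Bcl2l1 with Bid, 0.97 for Bak1 with Bmf, 0.95 for Bid with Bmf and 0.93 for Bax with Bak1. Bcl2l11 ran opposite to Bid (-0.95) and Bcl2l1 (-0.94). Bcl2 followed none of the other members closely, with r between -0.56 and 0.46. Among 9250 genes with a mean of at least 10 CPM, the closest to Bcl2 were Slc2a9 (r = 0.88), Haus2 (0.88) and Slc35g1 (0.87), and the closest to Mcl1 were Faf1 (0.95), Eif4b (0.94) and Cpsf3 (0.94). Those closest to Bcl2l11 were Dirc2 (0.97), B4galt7 (0.97) and Pik3ip1 (0.97), the last of which encodes an inhibitor of PI3 kinase.

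Of 16 further BCL2 family genes 14 were tested, and Bcl2l10 and Hrk had no reads in any library. Of these, 6 rose and 2 fell in conventional cells of KO mice, with a median log2 fold change of 0.67 against -0.05 over all genes, of which 23.3% rose and 25.4% fell. The survival gene Bcl2l2 (BCL-W) rose by 1.77 (SE 0.19, adjusted p = 3.01e-05), from 2.59 to 4.20 CPM in WT to 11.3 to 12.2 CPM in KO. Bcl2a1a, Bcl2a1b and Bcl2a1d, copies of the survival gene A1 found also in neutrophils and other myeloid cells, rose by 2.20, 1.21 and 1.64, but their sequences are near-identical and reads may be split between them. The BH3-only gene Bik rose by 1.13 (adjusted p = 0.00382) and Bcl2l15 by 1.31 (0.0250, with overlapping groups and under 1 CPM in every library). Bcl2l12 fell by 0.49 and the mitophagy receptor Bnip3l by 0.24, with an adjusted p of 0.00186 each. With T cell gene scaling both values turned positive, at 0.10 and 0.35. Bcl2l15 was not called without WT replicate 1 (0.0937) or 2 (0.0964), or KO replicate 2 (0.0975) or 3 (0.0586).

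In KO regulatory cells 3 of the 14 were higher and 0 lower, with a median of 0.22 against 0.00 over all genes, of which 4.01% and 3.82% were called in these directions. Bok, an effector relative of Bax, had 3.03, 1.74 and 4.35 CPM in WT, against 15.5, 7.38 and 6.87 CPM in KO regulatory libraries, a rise of 1.70 (SE 0.42, adjusted p = 0.0322). Conventional libraries held at most 2 reads of it each. Bcl2l14 had 3.80 to 5.14 CPM in WT, against 6.25 to 11.9 CPM in KO, and rose by 1.02 (SE 0.22, adjusted p = 0.0205). Bik rose by 1.05 (SE 0.25, adjusted p = 0.0293), from 1.30 to 2.07 CPM to 3.23 to 3.71 CPM. All 3 calls were lost when only the regulatory groups were fitted (adjusted p = 0.0921, 0.0930 and 0.0655 for Bok, Bcl2l14 and Bik) and without WT replicate 1 (0.0903, 0.0639 and 0.0887). They were also lost without KO replicate 3 (0.05003, 0.0714 and 0.0807), Bok without WT replicate 2 (0.102), Bok and Bik without KO replicate 1 (0.104 and 0.0704), and Bik without KO replicate 2 (0.0516). Without the 4 libraries with reads of both sexes none was called (0.130, 0.0785 and 0.355), and Bik was not called without the 2 in which both reached 10 CPM (0.0863).

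Between the cell types, 10 of the 14 were higher and 2 lower in WT regulatory cells, with a median of 1.55 against 0.07 over all genes, and 8 were higher and 0 lower in KO, with a median of 0.75 against 0.03. Of all genes 39.1% were higher and 33.3% lower in WT, and 36.1% and 31.7% in KO. Bcl2l2 rose by 1.64 (adjusted p = 1.15e-05) in WT, where Bcl2a1b and Bcl2a1d rose by 1.87 and 1.98. In KO, Bcl2l14 rose by 3.04 (adjusted p = 1.05e-06), the BH3-only gene Bad by 0.82 (3.64e-05) and Bcl2a1b by 0.95. The knockout effect differed between the cell types for 3 genes, whose log2 fold change of KO over WT was lower in regulatory than in conventional cells: Bcl2l2 (-1.67, adjusted p = 0.00156), Bcl2a1b (-0.92, 0.0109) and Bcl2a1d (-1.17, 0.0151). The calls of Bcl2a1b and Bcl2a1d were lost with T cell gene scaling (0.104 and 0.0619) and without the 4 libraries with reads of both sexes (0.0580 and 0.0784).

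Downstream of the mitochondrion, 19 genes of the apoptosome, the caspases and their inhibitors were tested. Of these, 4 rose and 5 fell in conventional cells of KO mice, with a median of -0.07, against 23.3% and 25.4% of all genes and their median of -0.05. In KO regulatory cells edgeR called 0 of the 19, of which 4 had an unadjusted p below 0.05, and DESeq2 called 3. Of all genes edgeR called 7.83% and DESeq2 12.7%. Between the cell types, where 72.4% of all genes in WT and 67.8% in KO were called, 10 were higher and 5 lower in WT, among them Birc6 (-1.43, adjusted p = 5.19e-08), a large inhibitor of apoptosis. In KO 13 were higher and 5 lower, among them Birc3 (0.86, adjusted p = 2.89e-07) and Birc6 (-0.78, 6.18e-06, and 0.464 with T cell gene scaling). The log2 fold change of KO over WT was higher in regulatory than in conventional cells for 4 genes and lower for 3, where 8.86% and 12.4% of all genes were called. Birc6 was among the 4, with a difference of 0.65 (adjusted p = 0.00276, and 0.400 with T cell gene scaling).

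On the death receptor branch, which reaches the mitochondrion by cleaving BID, 2 of 10 genes rose and 2 fell in conventional cells of KO mice and 0 rose and 1 fell in those of the regulatory type, where 48.7% and 7.83% of all genes were called. Casp8, the protease that cleaves BID, was lower in both: it fell by 0.38 (SE 0.06, adjusted p = 4.50e-04) in conventional and by 0.40 (SE 0.06, adjusted p = 0.00494) in regulatory cells. Its levels were 196 to 206 CPM in WT, against 149 to 159.5 CPM in KO conventional libraries, and 179 to 213 and 144 to 156 CPM in regulatory libraries. With T cell gene scaling the values turned positive, at 0.21 (adjusted p = 0.280) and 0.14 (0.468). With only the regulatory groups fitted, the adjusted p of the regulatory fall was 0.0540. Tnfsf10, the ligand TRAIL, rose by 0.34 (adjusted p = 0.0157) in conventional cells, a call lost without WT replicate 2 (0.0513) or 3 (0.0639) or KO replicate 2 (0.0577). Regulatory cells had 1 gene higher and 5 lower in WT, and 3 higher and 5 lower in KO, against 72.4% and 67.8% of all genes called either way. Cflar, the inhibitor of Casp8, fell by 1.06 and 0.97 and the receptor Tnfrsf1a by 0.69 and 0.93 between them, 4 calls that were lost with T cell gene scaling (adjusted p of 0.0566, 0.0880, 0.851 and 0.300). The KO effect differed for Fasl (-1.51, adjusted p = 0.0459), a call lost without any 1 conventional library (adjusted p of 0.0602 to 0.0985), without WT regulatory replicate 1 (0.0815) or 2 (0.112) and without KO regulatory replicate 1 (0.0773) or 2 (0.0881).

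Of 22 regulators known to act on BCL2 family genes, 5 rose and 7 fell in conventional cells of KO mice, with a median of -0.10 against -0.05 over all genes, of which 48.7% were called. Trp53, which encodes the p53 that induces Pmaip1 and Bbc3, fell by 0.42 (SE 0.05, adjusted p = 5.38e-05), from 199 to 215 CPM to 152 to 161 CPM. With T cell gene scaling the Trp53 value turned positive, at 0.18 (adjusted p = 0.384). Il2rb, a receptor chain for interleukins 2 and 15, rose by 1.53 (SE 0.19, adjusted p = 8.06e-05), from 128 to 219.8 CPM to 432 to 513 CPM. In KO regulatory cells 0 were higher and 1 was lower, Mdm2, which targets p53 for degradation, at -0.29 (SE 0.05, adjusted p = 0.00581). Mdm2 was at 0.24 (adjusted p = 0.267) with T cell gene scaling and was not called without the 4 libraries with reads of both sexes (0.182). Between the cell types 7 were higher and 12 lower in WT and 9 higher and 11 lower in KO, against 72.4% and 67.8% of all genes called. Il2ra, the high-affinity receptor chain that marks regulatory T cells, rose by 4.82 and 3.78. Il2rb rose by 2.47 (adjusted p = 5.51e-07) in WT, and Mdm2 fell by 0.71 (2.19e-07) in KO, a call lost with T cell gene scaling (0.574). The log2 fold change of KO over WT was higher in regulatory than in conventional cells for 7 genes and lower for 3, where 21.3% of all genes were called. Il2rb was among the 3 (difference -1.89, adjusted p = 8.47e-04) and Trp53 among the 7 (0.38, 0.00318, and 0.725 with T cell gene scaling).

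Because the T cell markers had lower summed levels in KO and in regulatory libraries, the members were also set against 6 T cell genes (Lat, Cd5, Cd6 and the CD3 chains Cd3d, Cd3e and Cd3g). This scaling moved the median of all genes from -0.05 to 0.53 in the conventional and from 0.00 to 0.53 in the regulatory knockout comparison, so a small negative value turns positive by construction. In conventional cells 8 members were then called, all higher, where 44.4% of all genes were called and 44.0% higher, with Bcl2 at 0.56 (adjusted p = 0.0312), Mcl1 at 0.52 (0.0289) and Pmaip1 far above the shift at 2.96. In regulatory cells 8 were called, all higher, where 32.4% of all genes were called and 32.1% higher, while Bcl2, at 0.18 (adjusted p = 0.428), and Bcl2l11, at 0.49 (0.0589), were not. For the difference between cell types 1 member was called, against 5.97% of all genes. Bcl2 had the lowest log2 fold change of the 10 members in regulatory cells under each of the scalings shown, below the median of all genes. A change of scaling moves all genes of a comparison by nearly the same amount. This order was therefore nearly fixed in advance and does not test the dependence on scaling.

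**Figure D5:**
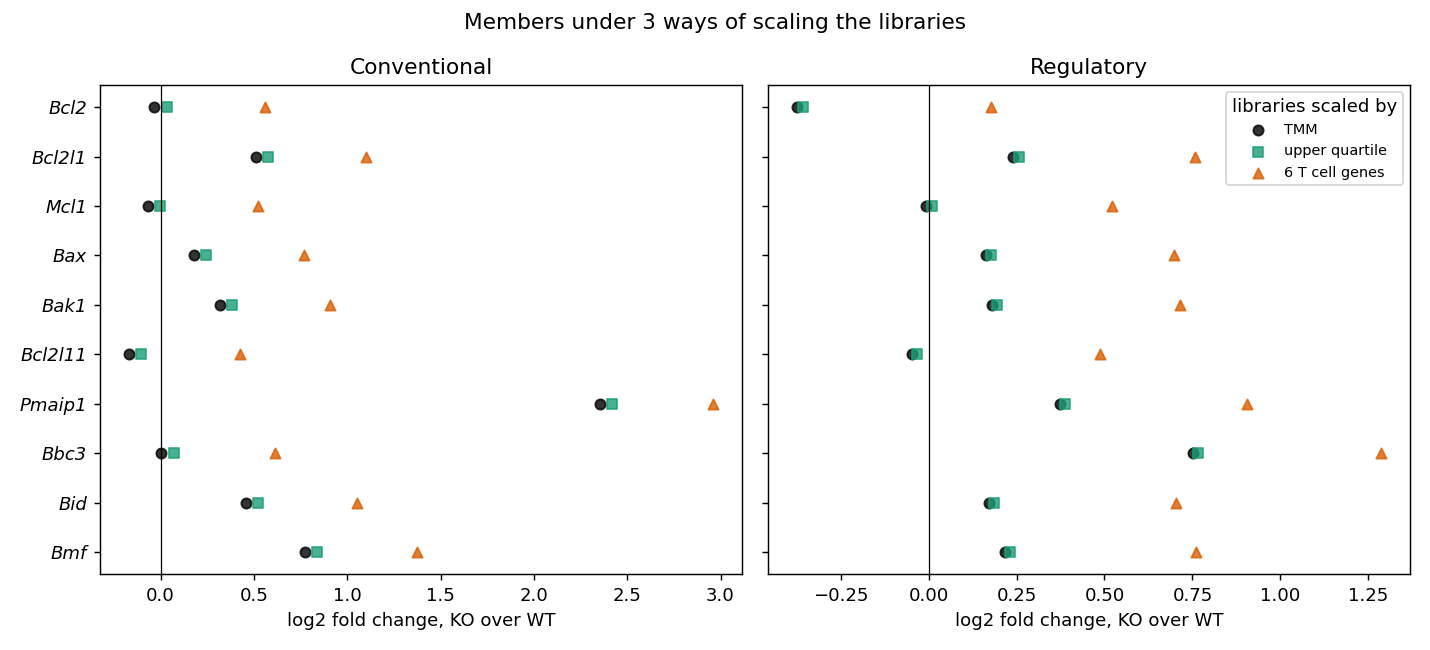
Log2 fold changes of KO over WT for the 10 members in conventional (left) and regulatory (right) T cells, with libraries scaled by TMM (black), upper quartile (green) or 6 T cell genes (orange); the panels have different axes. TMM and upper quartile nearly coincide, and scaling to T cell genes moves every member to the right.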

How the data were processed

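The deposited files hold whole-number read counts per gene and library that the authors made from stranded, polyadenylated RNA libraries, with STAR (version 1.7.20) on GRCm38 per the submitters' processing notes, and counted on the reverse strand per the file name. The annotation release is not given in the sources used here. The 4 tally rows that name no gene were left out of library sizes and tests, and 45143 of 45706 IDs matched a symbol of GENCODE M21, which also gave exon lengths and coordinates. All 12 libraries were fitted together with a term per group in edgeR 4.0.16 (R 4.3.3, TMM, filterByExpr with a minimum count of 10 and a minimum total of 15, quasi-likelihood F test, Benjamini-Hochberg adjustment over 15922 genes, threshold 0.05), after the scripts had been tested on simulated data. Levels are TMM-scaled CPM. All members are named in every comparison, other pathway genes only if called and among the smallest p of their list, except that all called BCL2 family genes are named in both knockout comparisons. Some genes that this rule names are not reported here. Patterns were compared by Pearson r of log2 CPM (prior count 2). Alternatives were other scalings, no filter, DESeq2 1.42.0, fewer groups or libraries, a sex term and a replicate block. Leaving out 2 libraries with much Xist and Y-linked RNA was chosen after seeing the data. Members and lists were chosen with earlier results of these data known.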

Additional observations from a re-analysis of the deposited data

Results flagged for a closer look

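The effect of the knockout differed between regulatory and conventional T cells for 3 members by the test of the difference itself, edgeR's quasi-likelihood test of the interaction over all genes. The difference, regulatory minus conventional on the log2 scale, was -1.98 for Pmaip1 (adjusted p = 3.70e-04), -0.34 for Bcl2 (0.0396) and -0.29 for Bid (0.0340). For Pmaip1 the KO effect was 2.35 in conventional and 0.37 in regulatory cells, for Bcl2 -0.03 and -0.37, and for Bid 0.46 and 0.17. The Pmaip1 call held in all 21 alternatives, while the Bcl2 and Bid calls were each lost in 11 of 21. Of the marker lists, 8 of 8 B cell, 8 of 9 NK cell, 7 of 10 macrophage, 6 of 12 neutrophil, 5 of 7 dendritic cell and 3 of 5 regulatory T cell markers were lower by the same test, and their part in these differences was not tested.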

How the results depend on the processing

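Over 22 alternatives 990 of 1090 member values kept their direction and their side of the threshold. Scaling to 6 T cell genes gave 8 members called in the regulatory knockout comparison (1 with TMM), where all genes called went from 7.83% to 32.4%. For the difference between cell types it gave 1 (3 with TMM), where all genes called went from 21.3% to 5.97%. The regulatory count was 2 with upper-quartile scaling (7.57% of all genes called), 2 with DESeq2 (12.7%), 0 with only the groups compared (2.08%), 0 without the 4 libraries with reads of both sexes (0.753%), and 0 to 2 with 1 library left out. The count for the difference was 1 with no filter (11.9%), 1 without the 4 libraries (13.4%), and 1 to 3 with 1 library left out. The test of the difference needs all groups, so it was not run with fewer. The cause was not tested.

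Under T cell gene scaling the all-gene median was 0.53 in both knockout comparisons and 0.71 and 0.62 between the WT and the KO cell types, so small negative values turn sign by construction. Those that turned were, in KO conventional cells, Bcl2 0.56, Mcl1 0.52, Bcl2l11 0.42, Casp8 0.21, Bcl2l12 0.10, Bnip3l 0.35 and Trp53 0.18. In KO regulatory cells they were Bcl2 0.18, Mcl1 0.52, Bcl2l11 0.49, Casp8 0.14 and Mdm2 0.24. Between cell types they were Bcl2l11 0.022 in WT, and Bcl2 0.30, Bcl2l11 0.086 and Bbc3 0.079 in KO, and for the difference Mcl1 -0.0026. With upper-quartile scaling Bcl2 became 0.033 in conventional and Mcl1 0.0088 in regulatory cells. With only the groups compared, Bcl2 was 0.042 and Mcl1 0.0080 in conventional cells. With no filter Bbc3 was -0.013 there, and the Bax difference 0.0081. Without the 4 libraries Bbc3 was -0.027 in conventional cells, Bcl2l11 0.038 in regulatory cells, Bcl2 -0.082 between WT cell types and the Bax difference 0.059, and without the 2 libraries Mcl1 was 0.0080 in regulatory cells.

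With 1 library left out, signs turned for members near 0. In conventional cells Bbc3 ranged from -0.33 to 0.45 and Bcl2 from -0.090 to 0.027. In regulatory cells Mcl1 ranged from -0.035 to 0.016 and Bcl2l11 from -0.079 to 0.00094. Bcl2 between WT cell types ranged from -0.049 to 0.089, Pmaip1 between KO cell types from -0.00088 to 0.38, and the differences of Bax from -0.075 to 0.025 and of Mcl1 from -0.029 to 0.083.

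With a replicate block 5, 1, 8, 8 and 3 members were called (conventional, regulatory, WT and KO cell types, difference), and the calls of Bax in conventional cells (adjusted p = 0.0626), Bik in regulatory cells (0.0620) and the Fasl difference (0.0848) were lost. The numbers do not pair the samples: same-numbered deviations correlated at -0.518 to 0.176, over 0.1 in 4 of 18 pairs. The lowest member counts were those of Pmaip1 in WT conventional libraries, at 88 to 104 reads.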
